A study of Mus musculus with 16 samples.

Results

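The respiratory chain and the ATP synthase were followed as 90 genes in tumour cells enriched from mice bearing tumours of LLC1, a line of mouse Lewis lung carcinoma. Members were taken by symbol: Nduf genes of the a, b, c, s and v series (complex I), Sdha to Sdhd (complex II), Uqcr genes (complex III), Cox4 to Cox8 genes (complex IV), Atp5 genes (complex V) and the mt- genes for proteins. Of 95 matching symbols, 3 named as pseudogenes (Ndufb1-ps, Atp5c1-ps and Atp5l-ps1) were left out. Another 2, Ndufa4l2 and Cox7a1, lay less than 1 log2 unit above the lowest value of the table (4.84) in every library and were not kept. The 90 members, of 24334 genes in the table and 15715 that passed the same filter, comprised 13 genes of the mitochondrial genome and 77 nuclear genes. The mitochondrial members encode 7 subunits of complex I, 1 of complex III, 3 of complex IV and 2 of complex V, and the nuclear members 37, 4, 8, 11 and 17 genes of complexes I to V. Complexes follow the symbols, so Ndufa4, now seen as a subunit of complex IV, is counted in complex I, and Atp5s, a coupling factor, in complex V. The member nearest the filter was Atp5k, at 5.58 to 6.44. Just outside it, Cox7a1 ranged over 4.84 to 5.65 and Ndufa4l2 over 4.84 to 5.60.

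Mice received Combo (MYCi975 together with TMP195), MYCi975 at 50 mg/kg, TMP195 at 50 mg/kg or Vehicle (DMSO) over 16 days, with 4 libraries in each group. MYCi975 blocks the transcription factor MYC, and TMP195 inhibits the class IIa histone deacetylases. The dose of each compound within Combo is not stated, nor is the strain, age or sex of the mice, nor whether each library is a separate animal. P-values therefore measure only the spread of libraries within groups, which may be technical. Values are variance-stabilised and close to log2, and all levels and differences below are on that scale. The series title ties the combination to mitochondrial dysfunction, and the comparison asked how the transcripts of the chain stood in each group.

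Sequencing depth is unknown, and 1960 to 3130 genes per library stood at the lowest value. Of 6 epithelial tumour markers, Krt8 (10.17 to 10.97), Krt18, Krt7 and Krt19 were measured, whereas Epcam and Cdh1 lay under the filter. Leukocyte markers were low, with 7 of 9 past the filter. The mean of those 7 was 5.73 to 6.25 in Combo, 5.68 to 6.83 in MYCi975, 6.02 to 7.66 in TMP195 and 5.82 to 6.34 in Vehicle. For macrophages 6 of 12 markers passed, among them Csf1r and Mrc1, and the complement genes C1qa, C1qb and C1qc did not. Their mean reached 8.19 in TMP195 replicate 1 and no more than 6.65 in any Combo or MYCi975 library. All 8 fibroblast markers passed, with means of 11.19 to 11.77 in Combo, 10.45 to 11.54 in MYCi975, 10.85 to 11.31 in TMP195 and 10.86 to 11.30 in Vehicle. Neutrophil markers passed in 6 of 8 cases, with means of 6.18 to 6.87 in Combo, 6.33 to 8.16 in MYCi975, 6.75 to 7.58 in TMP195 and 6.38 to 6.84 in Vehicle. The red cell list had 3 of 6 markers past the filter, all of them globin genes (Hba-a1, Hba-a2 and Hbb-bs). Their mean was 5.71 to 6.53 in Combo, 5.82 to 6.43 in MYCi975, 6.11 to 7.31 in TMP195 and 5.63 to 6.66 in Vehicle. Of the markers of skeletal muscle 2 of 8 passed, and of those of fat 1 of 6.

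Complexes I to IV pass electrons from NADH and succinate to oxygen. Complexes I, III and IV pump protons out of the mitochondrial matrix, and complex V uses the proton gradient to make ATP. Complex II has nuclear subunits throughout, whereas the other complexes join subunits of both genomes. The mitochondrial genome is transcribed as long precursors from both strands, which are cut into separate RNAs, and the nuclear subunits are transcribed gene by gene. MYC is known to raise transcription of many genes of mitochondrial biogenesis, and NRF1 and GABP are known regulators of nuclear subunit genes.

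All 13 mitochondrial members but mt-Nd6 lie on the same strand of the mitochondrial chromosome. Coordinates are those of GENCODE M21 on GRCm38. These genes carry no introns, and some of them share bases, which matters for the values of single genes. The reading frames of mt-Atp8 (chrM:7766-7969) and mt-Atp6 (chrM:7927-8607) share 43 bases, 21.1% of the shorter gene. The shared bases are in capitals in the 60 bases of chrM:7910-7969, plus strand.
mt-Atp8 and mt-Atp6: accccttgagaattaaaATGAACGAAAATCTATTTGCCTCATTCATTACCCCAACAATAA
mt-Nd5 (chrM:11742-13565, plus strand) and mt-Nd6 (chrM:13552-14070, minus strand) share 14 bases on opposite strands. Those bases are the capitals of chrM:13506-13565, plus strand.
mt-Nd5 and mt-Nd6: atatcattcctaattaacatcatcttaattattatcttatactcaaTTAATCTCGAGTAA
A further 7 bases are shared by mt-Nd4l and mt-Nd4. Whether the quantification used the strand of the reads is not given in the sources used here, so reads of the short stretch common to mt-Nd5 and mt-Nd6 cannot be assigned with certainty. Nuclear copies of mitochondrial sequence and processed pseudogenes of many nuclear subunits can also take part of the reads.

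Promoter windows of 300 bases across the gene start, from RefSeq on GRCm38.p6, were found for 62 of the 77 nuclear members. The NRF1 motif CGCATGCG, read on both strands like the other motifs, was present in 8 of the 62 windows (12.9%), against 3.90% of the 10235 windows of tested genes and 1.91% of all 27025 windows. The GABPA motif CCGGAAG was in 15 windows (24.2%), against 18.4% of the windows of tested genes. The YY1 motif AAGATGGC was in 8 (12.9%), against 4.83%. The MYC/MAX E-box CACGTG was in 5 (8.06%), a smaller share than among the windows of tested genes (1028 of 10235). Of all windows, 7.24% held it, so the E-box was not more frequent in members than in tested genes. The E-box genes were Atp5g1, Atp5g3, Atp5l, Ndufa7 and Ndufv1. Shares are descriptions, and a match is not a binding site.

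The 3 windows below run from upstream sequence across the gene start into the first transcribed bases, and capitals mark the motifs found. They belong to nuclear members with an unadjusted p under 0.05 in a comparison below. Ndufa12 and Uqcr10 also had such a p. Neither was among the members found to carry a motif and neither is shown, so the 3 windows do not stand for all such members. The window of Ndufb8, an accessory subunit of complex I, is chr19:44555393-44555692 on the minus strand and holds the YY1 motif at position 38 relative to the start.
Ndufb8: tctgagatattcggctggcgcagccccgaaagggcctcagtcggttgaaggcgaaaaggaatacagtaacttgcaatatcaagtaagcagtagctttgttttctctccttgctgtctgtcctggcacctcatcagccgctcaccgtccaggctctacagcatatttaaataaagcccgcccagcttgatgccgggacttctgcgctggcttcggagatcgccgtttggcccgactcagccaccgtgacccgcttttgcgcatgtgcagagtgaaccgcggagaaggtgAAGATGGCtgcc
The window of Cox6a1, a subunit of complex IV, is chr5:115348909-115349208 on the minus strand. It holds the NRF1 motif at position -161 relative to the start and the GABPA motif, on the opposite strand, at -16.
Cox6a1: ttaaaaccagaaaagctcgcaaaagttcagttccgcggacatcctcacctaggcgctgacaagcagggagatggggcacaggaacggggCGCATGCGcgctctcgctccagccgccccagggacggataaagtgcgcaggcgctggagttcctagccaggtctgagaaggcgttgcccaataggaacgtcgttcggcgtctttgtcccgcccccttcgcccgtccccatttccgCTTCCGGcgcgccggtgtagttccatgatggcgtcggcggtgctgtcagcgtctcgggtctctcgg
The window of Atp5g1, a gene for the membrane ring subunit c of ATP synthase, is chr11:96075582-96075881 on the minus strand and holds the E-box at position -44.
Atp5g1: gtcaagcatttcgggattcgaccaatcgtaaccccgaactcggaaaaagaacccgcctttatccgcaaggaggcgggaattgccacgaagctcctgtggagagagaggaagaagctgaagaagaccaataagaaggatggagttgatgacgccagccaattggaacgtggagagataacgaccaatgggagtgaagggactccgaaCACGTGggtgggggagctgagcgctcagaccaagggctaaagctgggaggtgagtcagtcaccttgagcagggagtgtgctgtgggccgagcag

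The transcripts of the 2 genomes differed in how they varied between libraries. The mean over the 13 mitochondrial members ran over 12.73 to 14.05, and that over the 77 nuclear members over 9.19 to 9.48. These means compare libraries with each other, not the amounts of the genes, since the values are not scaled by length. The 2 ranges average different numbers of genes, so they are not a like measure of spread. The SD of single genes is given further below. The mitochondrial mean was 13.22, 13.16, 12.79 and 12.97 in Combo replicates 1 to 4. It was 13.01, 13.32, 14.05 and 12.89 in MYCi975, and 13.65, 12.94, 12.76 and 13.37 in TMP195. In Vehicle it was 13.35, 13.09, 13.76 and 12.73. The highest library, MYCi975 replicate 3, and the lowest, Vehicle replicate 4, came from different groups, and each pair of groups overlapped.

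The nuclear mean was 9.37, 9.19, 9.30 and 9.29 in Combo replicates 1 to 4. The MYCi975 libraries had 9.29, 9.29, 9.28 and 9.38, the TMP195 libraries 9.32, 9.22, 9.28 and 9.27, and the Vehicle libraries 9.41, 9.35, 9.21 and 9.48. Vehicle thus held both the highest nuclear mean (replicate 4) and nearly the lowest (replicate 3, below all but Combo replicate 2). The order of the libraries was not shared between the genomes. Vehicle replicate 3 ranked 2 of 16 for the mitochondrial mean and 15 for the nuclear mean, and Vehicle replicate 4 ranked 16 and 1.

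**Figure D1:**
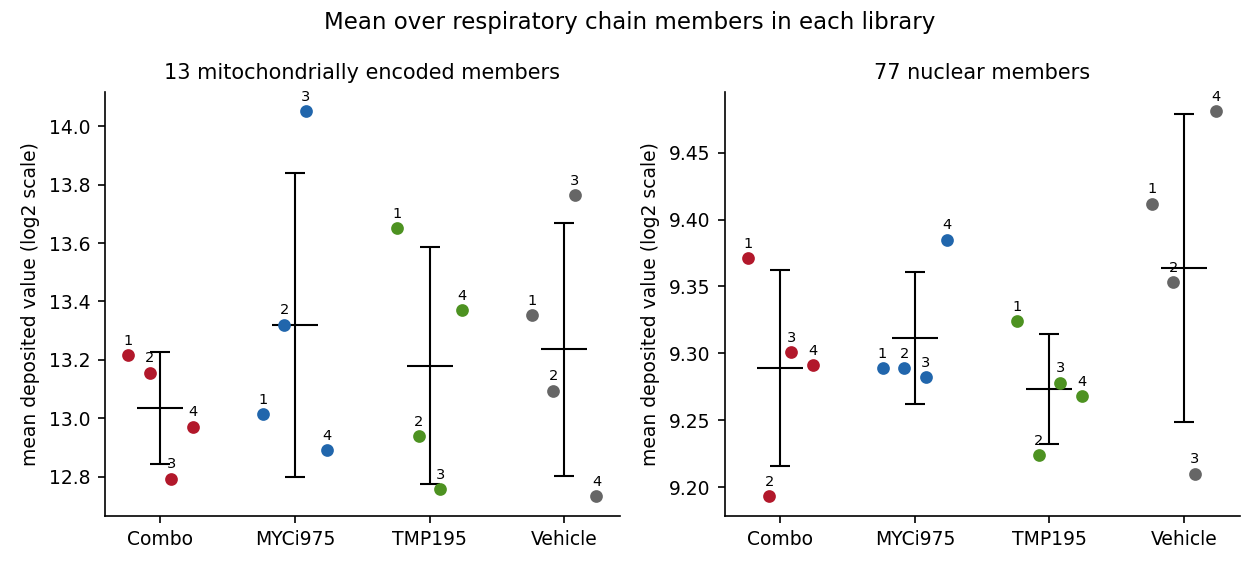
Mean deposited value (log2 scale) over the 13 mitochondrially encoded members, left, and the 77 nuclear members, right, for each library. Points are libraries numbered by replicate, and black bars are the group mean and SD of 4 libraries. Groups overlap in both panels, and the mitochondrial means span 12.73 to 14.05 against 9.19 to 9.48 for the nuclear ones. The panels average different numbers of genes.

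The mitochondrial genes stood high or low together within a library. In MYCi975 replicate 3 and in Vehicle replicate 3, 13 of 13 mitochondrial members lay above the mean of their own group, and in MYCi975 replicate 4 and Combo replicate 3 none did. The same libraries had 30, 14, 47 and 42 of 77 nuclear members above their group mean, and between 48.4% and 51.0% of all tested genes. The leukocyte marker mean was 6.83 in MYCi975 replicate 3, the highest of its group, and 5.97 in Vehicle replicate 3, within the range of its group. The neutrophil marker mean of MYCi975 replicate 3, 8.16, was the highest of the 16 libraries, and its fibroblast marker mean, 10.45, the lowest. The part of other cell types in the mitochondrial values was not tested.

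Within each complex of mixed origin, the mitochondrial mean less the nuclear mean was set side by side over the groups, as an index between libraries and not of amounts. For complex I it was 3.33 ± 0.19 in Combo, 3.57 ± 0.57 in MYCi975, 3.43 ± 0.40 in TMP195 and 3.40 ± 0.61 in Vehicle (SD, n = 4 each). For complex III, where mt-Cytb is the mitochondrial gene, it was 3.50 ± 0.22 in Combo, 4.02 ± 0.68 in MYCi975, 3.75 ± 0.59 in TMP195 and 3.70 ± 0.60 in Vehicle. Complex IV had 5.23 ± 0.23 in Combo, 5.33 ± 0.55 in MYCi975, 5.45 ± 0.33 in TMP195 and 5.32 ± 0.45 in Vehicle. Combo had the lowest mean in each of these, by less than 1 SD of the Vehicle libraries. In complex V the index was 3.54 ± 0.39 in Combo, 3.96 ± 0.52 in MYCi975, 3.79 ± 0.41 in TMP195 and 3.88 ± 0.43 in Vehicle, also with overlap between Combo and every other group. Complex II, with no mitochondrial gene, averaged 10.48 ± 0.10 in Combo, 10.45 ± 0.16 in MYCi975, 10.48 ± 0.05 in TMP195 and 10.53 ± 0.12 in Vehicle.

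**Figure D2:**
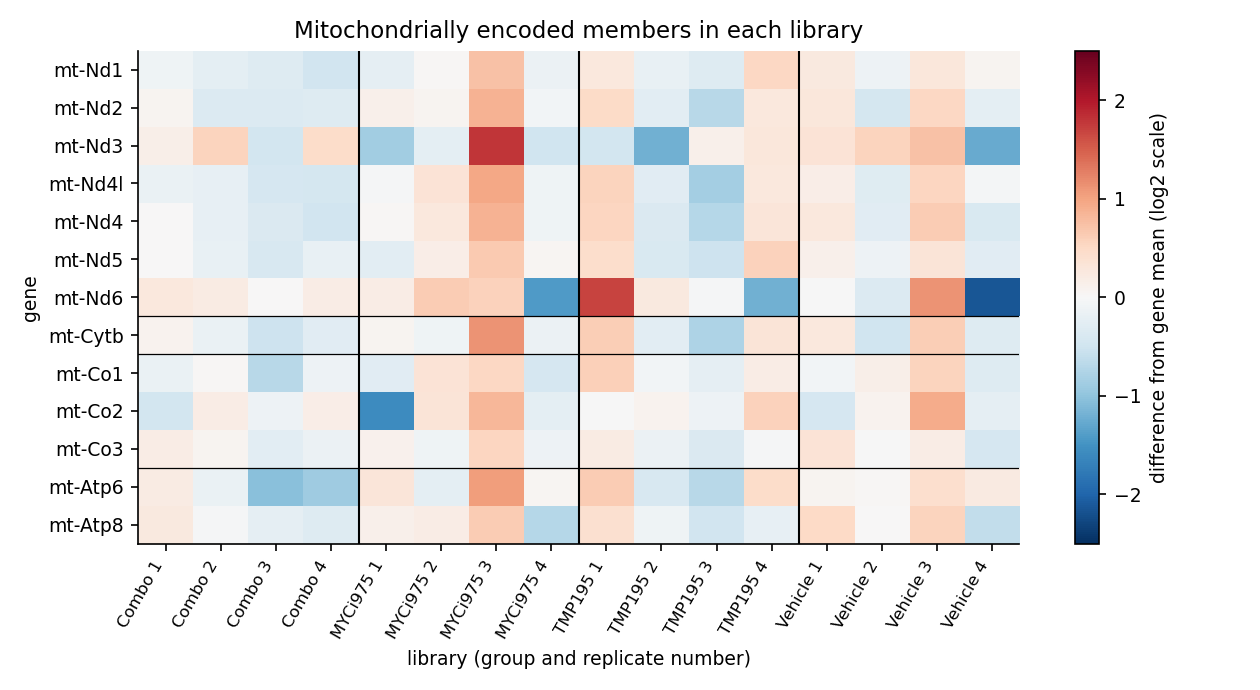
Each mitochondrially encoded member (rows, ordered by complex I, III, IV and V, separated by thin lines) in each of 16 libraries (columns), as the difference from the gene's own mean over all libraries on the log2 scale. MYCi975 replicate 3 and Vehicle replicate 3 are red throughout nearly all rows, and mt-Nd6 departs from the other rows in replicate 4 of MYCi975, TMP195 and Vehicle.

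In Combo against Vehicle, 11 of 13 mitochondrial members had a lower mean in Combo, with a median difference of -0.24. Nuclear members numbered 56 of 77 with a lower mean, and their median was -0.09. Over all tested genes 52.6% were lower and the median was -0.01. No member and none of the 15715 genes (0.0%) passed the test, limma with Benjamini-Hochberg adjustment at 0.05. At an unadjusted p under 0.05 no member stood among the 642 genes (4.09%) that did. The group mean over mitochondrial members was 13.03 ± 0.19 in Combo and 13.24 ± 0.43 in Vehicle (SD, n = 4 each), and over nuclear members 9.29 ± 0.07 in Combo and 9.36 ± 0.12 in Vehicle. The mitochondrial difference of -0.20 was -0.026 without Vehicle replicate 3 and -0.37 without Vehicle replicate 4. The nuclear difference of -0.075 was -0.126 and -0.036 without the same libraries. The mitochondrial mean less the nuclear mean differed by -0.13, and by 0.10 without Vehicle replicate 3. Fibroblast markers stood higher in Combo than in Vehicle in 7 of 8 tested cases (median 0.35) and epithelial tumour markers in 4 of 4 (median 0.14). Neutrophil markers stood lower in 4 of 6 (median -0.09) and leukocyte markers in 5 of 7 (median -0.05). Macrophage markers stood higher in 4 of 6 (median 0.10), as did the 1 lymphocyte marker tested (0.29). None passed the adjusted test, and the part of these cell types in the values of the chain was not tested.

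Among the mitochondrial members, mt-Atp6, the proton channel subunit of ATP synthase, had the lowest difference. Its values were 13.48, 13.09, 12.22 and 12.39 in Combo, against 13.34, 13.29, 13.68 and 13.50 in Vehicle. Combo replicates 3 and 4 lay far below the rest, and Combo replicate 1 lay within the Vehicle range, so the groups overlapped. The difference was -0.66 (SE 0.32, 95% interval -1.33 to 0.02, limma adjusted p = 0.987). mt-Nd1, a membrane subunit of complex I, had 14.05, 13.93, 13.83 and 13.69 in Combo, against 14.41, 14.04, 14.44 and 14.23 in Vehicle. Only Combo replicate 1 reached the Vehicle range. The difference was -0.41 (SE 0.20, limma adjusted p = 0.987). mt-Co1, the catalytic subunit of complex IV, averaged 17.17 ± 0.32 in Combo and 17.49 ± 0.37 in Vehicle (SD, n = 4 each), a difference of -0.32 that was -0.171 without Combo replicate 3 and -0.165 without Vehicle replicate 3. The members above 0 were mt-Nd6 (0.51, SE 0.61) and mt-Nd3 (0.09, SE 0.51), which also had the widest errors. Without Vehicle replicate 4 both lay below 0, mt-Nd6 at -0.09 and mt-Nd3 at -0.37.

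Of the nuclear genes, those of complex IV were lower in Combo in 11 of 11 cases, by a median of -0.10, and each group of 4 values overlapped. Among them were Cox8a (-0.21, SE 0.15), Cox7b (-0.20, SE 0.12), Cox7a2 (-0.19, SE 0.12) and the large structural subunit Cox4i1 (-0.10, SE 0.19). Without Vehicle replicate 4 the difference was -0.10 for Cox8a and -0.12 for Cox7b, and without Vehicle replicate 2 it was -0.07 for Cox7a2 and 0.02 for Cox4i1. Leaving out a Combo library gave -0.09 for Cox8a (replicate 2) and 0.01 for Cox4i1 (replicate 1). Others, picked after their values were seen, were nearly level. Cox6c had a mean of 10.28 in Combo and in Vehicle, and Cox7c 10.16 in Combo and 10.17 in Vehicle. Cox7b had 10.55, 10.39, 10.28 and 10.28 in Combo, against 10.66, 10.52, 10.31 and 10.82 in Vehicle. Complex V genes were lower in 13 of 17 cases (median -0.09). Its catalytic subunit beta, Atp5b, had 14.11, 13.52, 13.49 and 13.56 in Combo, against 14.02, 13.91, 13.57 and 14.47 in Vehicle, a difference of -0.32 (SE 0.19) that was -0.16 without Vehicle replicate 4. Combo replicate 1 stood apart from the other 3 of its group and within the Vehicle range. Atp5d, the delta subunit of the central stalk, had 10.29, 10.36, 10.33 and 10.50 in Combo, against 10.44, 10.57, 10.48 and 11.09 in Vehicle. Its difference was -0.27 (SE 0.14, limma adjusted p = 0.987), and -0.13 without Vehicle replicate 4, the highest library.

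Complex I genes were lower in Combo in 25 of 37 cases (median -0.10), with the accessory subunit Ndufa12 at -0.19, and at -0.10 without Combo replicate 2. Ndufs1, the largest core subunit, was at -0.03 (95% interval -0.22 to 0.16), and the NADH-binding Ndufv1 at 0.14 (-0.19 to 0.47). Complex II gave 3 of 4 lower, with Sdhd at -0.14, Sdhb at -0.11 and the catalytic subunit Sdha at -0.06. Complex III gave 4 of 8 (median -0.02), with the core proteins Uqcrc1 at -0.26 and Uqcrc2 at 0.19. Without Vehicle replicate 4 these were -0.08 and 0.05, and without Vehicle replicate 3 Uqcrc1 was at -0.42. No member of either genome had Combo and Vehicle libraries that did not overlap, whereas 1.53% of all tested genes lay wholly lower and 1.79% wholly higher in Combo.

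In MYCi975 against Vehicle, the 2 genomes pointed in different directions on the mean. The mitochondrial direction rested on single libraries, and the size of the nuclear difference also depended on them. Mitochondrial members were lower in MYCi975 in 5 of 13 cases (median 0.11) and nuclear members in 52 of 77 (median -0.05), against 52.9% of all tested genes. The mitochondrial mean was 13.32 ± 0.52 in MYCi975 and 13.24 ± 0.43 in Vehicle (SD, n = 4 each), and the nuclear mean 9.31 ± 0.05 in MYCi975 and 9.36 ± 0.12 in Vehicle. The mitochondrial difference of 0.083 turned to -0.161 without MYCi975 replicate 3 and to -0.084 without Vehicle replicate 4. Without MYCi975 replicate 3, 11 of 13 mitochondrial members were lower in MYCi975. The count was 0 without Vehicle replicate 3, 1 without MYCi975 replicate 1 and 1 without MYCi975 replicate 4. It was 3 without MYCi975 replicate 2 and 2 without Vehicle replicate 1. The nuclear difference of -0.053 was -0.104 without Vehicle replicate 3 and -0.014 without Vehicle replicate 4. Without Vehicle replicate 4, 40 of 77 nuclear members were lower in MYCi975. Neutrophil markers stood higher in MYCi975 than in Vehicle in 6 of 6 tested cases (median 0.46) and leukocyte markers in 6 of 7 (median 0.13). Fibroblast markers stood higher in 5 of 8 (median 0.13) and macrophage markers lower in 4 of 6 (median -0.07). None passed the adjusted test, and the part of these cell types in the values of the chain was not tested.

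No gene passed limma's adjusted test in MYCi975 against Vehicle (0.0%), and 1 member, Cox6a1, was among the 476 genes (3.03%) with an unadjusted p under 0.05. Cox6a1, a regulatory subunit of complex IV whose promoter window is printed above, had 7.69, 7.98, 7.54 and 8.04 in MYCi975, against 8.02, 8.02, 8.16 and 8.30 in Vehicle. Replicate 4 of MYCi975 lay just inside the Vehicle range. The difference was -0.32 (SE 0.13, 95% interval -0.60 to -0.03, limma adjusted p = 0.999). Complex III genes were lower in 7 of 8 cases, with Uqcrh at -0.31, and complex IV genes in 8 of 11, with Cox8a at -0.24 and Cox4i1 at -0.21. Uqcrh was at -0.16 without MYCi975 replicate 3, Cox8a at -0.12 without Vehicle replicate 4 and Cox4i1 at -0.08 without Vehicle replicate 2. Of complex II, the membrane anchor Sdhd was at -0.28 (-0.14 without MYCi975 replicate 3) and the other anchor, Sdhc, at 0.23. Complex I genes were lower in 22 of 37 cases and complex V genes in 12 of 17. The lowest member value of this comparison, Ndufb4c at -0.83 (SE 0.43), was -0.27 without MYCi975 replicate 1, in which that gene stood at the lowest value of the table. No member had libraries of the 2 groups that did not overlap, against 0.706% of all tested genes wholly lower and 0.789% wholly higher.

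In TMP195 against Vehicle, the nuclear members were lower in TMP195 in 57 of 77 cases, with the complex IV genes lower in 10 of 11 (median -0.18). Over all tested genes 53.7% were lower. The mean over the nuclear complex IV genes was 9.885, 9.893, 9.892 and 9.631 in TMP195, against 10.002, 10.028, 9.838 and 10.011 in Vehicle. TMP195 replicate 4 thus lay well below the rest of its group. Mitochondrial members were lower in 9 of 13 cases (median -0.09), but in 3 without TMP195 replicate 3 and 5 without Vehicle replicate 3. The mitochondrial mean was 13.18 ± 0.41 in TMP195 and 13.24 ± 0.43 in Vehicle, and the nuclear mean 9.27 ± 0.04 in TMP195 and 9.36 ± 0.12 in Vehicle (SD, n = 4 each). The mitochondrial difference of -0.056 turned to 0.024 without TMP195 replicate 2, to 0.085 without TMP195 replicate 3 and to 0.12 without Vehicle replicate 3. The nuclear difference of -0.091 was -0.142 without Vehicle replicate 3 and -0.052 without Vehicle replicate 4. The library median over all tested genes itself differed by -0.041 between TMP195 and Vehicle. After the libraries were centred on their medians, the nuclear difference was -0.049, with 50 of 77 nuclear members lower. Without Vehicle replicate 4, 47 of 77 were lower. Leukocyte markers stood higher in TMP195 in 7 of 7 tested cases (median 0.76) and macrophage markers in 6 of 6 (median 1.21). Neutrophil markers stood higher in 5 of 6 (median 0.64) and fibroblast markers in 4 of 8 (median -0.03). No marker passed the adjusted test, and the part of these cell types in the values of the chain was not tested.

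No gene passed limma's adjusted test in TMP195 against Vehicle (0.0%), and 3 members were among the 767 genes (4.88%) with an unadjusted p under 0.05. Ndufa12, an accessory subunit of complex I, had 9.43, 9.51, 9.67 and 9.75 in TMP195, against 9.97, 10.02, 9.90 and 10.09 in Vehicle. Every TMP195 library lay below every Vehicle library. The difference was -0.40 (SE 0.13, 95% interval -0.69 to -0.12, limma adjusted p = 0.945). Atp5g1, one of several genes for subunit c of ATP synthase, also did not overlap. It had 8.85, 8.63, 8.77 and 8.48 in TMP195, against 9.05, 9.25, 8.94 and 8.93 in Vehicle, a difference of -0.36 (SE 0.16, limma adjusted p = 0.945). The other genes for the same protein were Atp5g3, at 10.08 to 10.19 in TMP195 and 10.09 to 10.27 in Vehicle, and Atp5g2, which ranged over 5.90 to 7.02 in TMP195 and 6.08 to 6.95 in Vehicle. Uqcr10, a small subunit of complex III, had 8.64, 8.36, 8.51 and 8.14 in TMP195, against 8.75, 8.62, 8.70 and 8.67 in Vehicle. TMP195 replicate 1 alone reached the Vehicle range. Its difference was -0.27 (SE 0.12, limma adjusted p = 0.945), and -0.18 without TMP195 replicate 4. Libraries wholly lower in TMP195 were seen for these 2 members, Ndufa12 and Atp5g1, of 90, and for 1.4% of all tested genes. None lay wholly higher, against 1.1% of all tested genes.

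**Figure D3:**
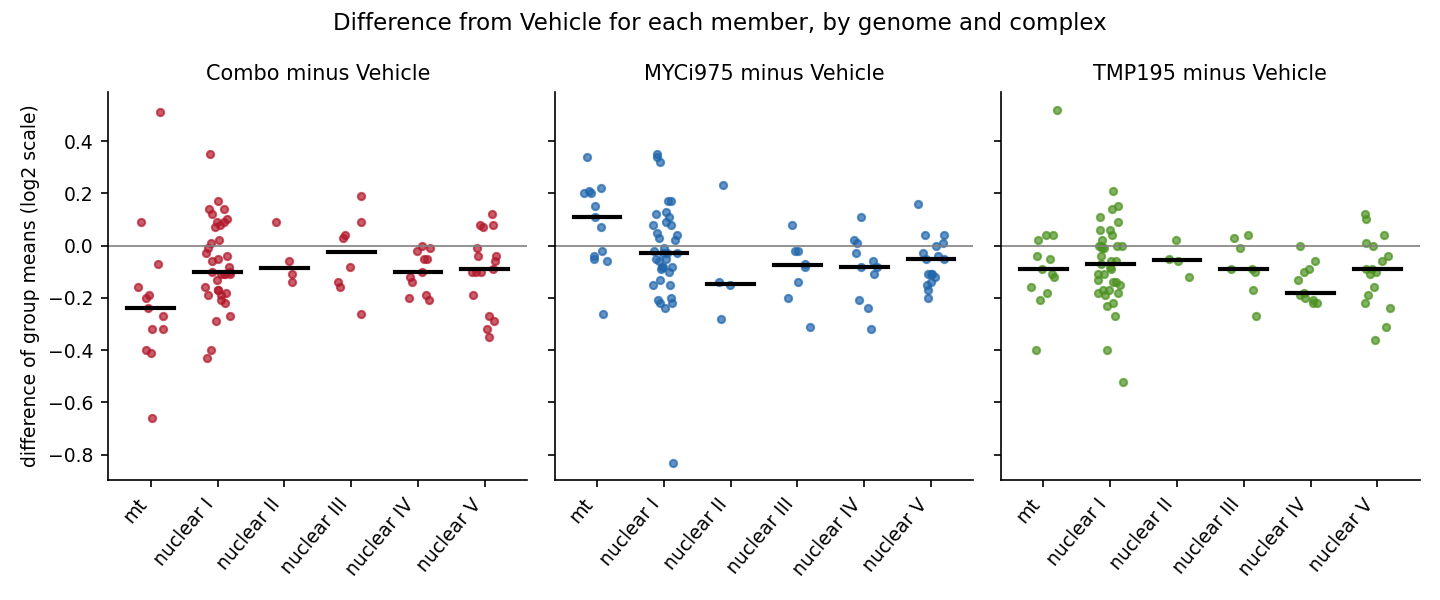
Difference of group means from Vehicle (log2 scale) for each member, by genome and complex, in Combo, MYCi975 and TMP195. Points are genes and black bars medians, such as -0.24 for mt members in Combo and 0.11 in MYCi975; the 3 panels share the same Vehicle libraries.

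Combo was also compared with each compound alone. Against MYCi975, mitochondrial members were lower in Combo in 10 of 13 cases (median -0.34) and nuclear members in 44 of 77 (median -0.04), with 49.8% for all tested genes. The mitochondrial difference of -0.285 was -0.041 without MYCi975 replicate 3. Neutrophil markers were lower in Combo in 6 of 6 tested cases (median -0.59) and leukocyte markers in 5 of 7 (median -0.21). Fibroblast markers were higher in Combo in 8 of 8 (median 0.20) and macrophage markers in 5 of 6 (median 0.15). None of these markers passed the adjusted test, and their part in these values was not tested. No gene passed limma's adjusted test (0.0%), and 3 members were among the 365 genes (2.32%) with an unadjusted p under 0.05. mt-Nd4l, a small membrane subunit of complex I, had 10.22, 10.18, 9.96 and 9.94 in Combo, against 10.34, 10.72, 11.35 and 10.28 in MYCi975. The groups did not overlap, with a difference of -0.60 (SE 0.27, limma adjusted p = 1) and of -0.37 without MYCi975 replicate 3. mt-Atp6 had the Combo values given above, against 13.57, 13.03, 14.31 and 13.32 in MYCi975. Its groups overlapped, with a difference of -0.76 (SE 0.32, limma adjusted p = 1), and of -0.51 without MYCi975 replicate 3. Ndufb8 had 8.62, 8.09, 8.57 and 8.28 in Combo, against 8.64, 8.51, 8.78 and 9.22 in MYCi975. Its difference was -0.40 (SE 0.18, limma adjusted p = 1), with the highest value in MYCi975 replicate 4, and -0.26 without that library. Ndufs3, a core subunit of complex I with one of the narrowest spreads, lay wholly lower in Combo (9.29 to 9.50) than in MYCi975 (9.52 to 9.59). Wholly lower libraries were thus seen for 2 members and for 0.815% of all tested genes, and wholly higher ones for no member and 0.891% of all tested genes.

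Against TMP195, mitochondrial members were lower in Combo in 10 of 13 cases (median -0.20) and nuclear members in 34 of 77 (median 0.02), with 49.3% for all tested genes. The mitochondrial difference of -0.146 was 0.011 without TMP195 replicate 1. That library had the highest marker means of leukocytes, macrophages and epithelial tumour cells. Macrophage markers stood lower in Combo than in TMP195 in 6 of 6 tested cases (median -1.07), leukocyte markers in 7 of 7 (median -0.81) and neutrophil markers in 5 of 6 (median -0.70), none past the adjusted test. Fibroblast markers stood higher in Combo in 6 of 8 (median 0.31), also with none past it. The part of these cell types in these values was not tested. No gene passed limma's adjusted test (0.0%), and 1 member was among the 837 genes (5.33%) with an unadjusted p under 0.05. That was Uqcr10, at 8.82, 8.52, 8.75 and 8.79 in Combo and at the TMP195 values given above, higher in Combo by 0.31 (SE 0.12, limma adjusted p = 0.847). No member had libraries wholly lower or higher in Combo than in TMP195, against 1.62% and 1.75% of all tested genes. For the interaction, Combo minus MYCi975 minus TMP195 plus Vehicle, no gene passed (0.0%) and 3 members were among 471 genes (3.0%) with an unadjusted p under 0.05. They were Ndufa12 (0.45, SE 0.19), Uqcr10 (0.45, SE 0.18) and Ndufb8 (-0.61, SE 0.26). Mitochondrial members had an interaction below 0 in 10 of 13 cases (median -0.35) and nuclear members in 29 of 77 (median 0.06), with 48.2% for all tested genes. The mitochondrial mean interaction of -0.229 was 0.015 without MYCi975 replicate 3. The interaction was also below 0 for 6 of 6 macrophage markers (median -1.07), 7 of 7 leukocyte markers (median -0.93) and 6 of 6 neutrophil markers (median -1.16). It was above 0 for 7 of 8 fibroblast markers (median 0.15). The part of these cell types was not tested.

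The spread between libraries was wider for the mitochondrial genes than for the nuclear ones. The SD within groups had a median of 0.446 over the 13 mitochondrial members (0.272 for mt-Co3 to 1.02 for mt-Nd6) and 0.214 over the 77 nuclear members. All tested genes had a median of 0.222, and the 8703 genes at or above the mean level of the lowest mitochondrial member 0.199. Each of the 13 mitochondrial members lay above the median of all tested genes, as did 37 of the 77 nuclear members. The standard error of a group difference was accordingly larger, with a median of 0.28 for mitochondrial and 0.15 for nuclear members.

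By group, the median SD of mitochondrial members was 0.207 in Combo, 0.489 in MYCi975, 0.560 in TMP195 and 0.447 in Vehicle. The nuclear members had 0.158 in Combo, 0.221 in MYCi975, 0.212 in TMP195 and 0.220 in Vehicle, and all tested genes 0.169, 0.221, 0.214 and 0.206 in the same order. Combo had the smallest SD of the 4 groups for 12 of 13 mitochondrial members (92.3%), the exception being mt-Atp6, for 40 of 77 nuclear members (51.9%) and for 39.4% of all tested genes. The mitochondrial count was 6 without MYCi975 replicate 3, and 4 when TMP195 replicate 1 was also left out. The nuclear count was 25 without Vehicle replicate 4. No test of the difference in spread was made.

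**Figure D4:**
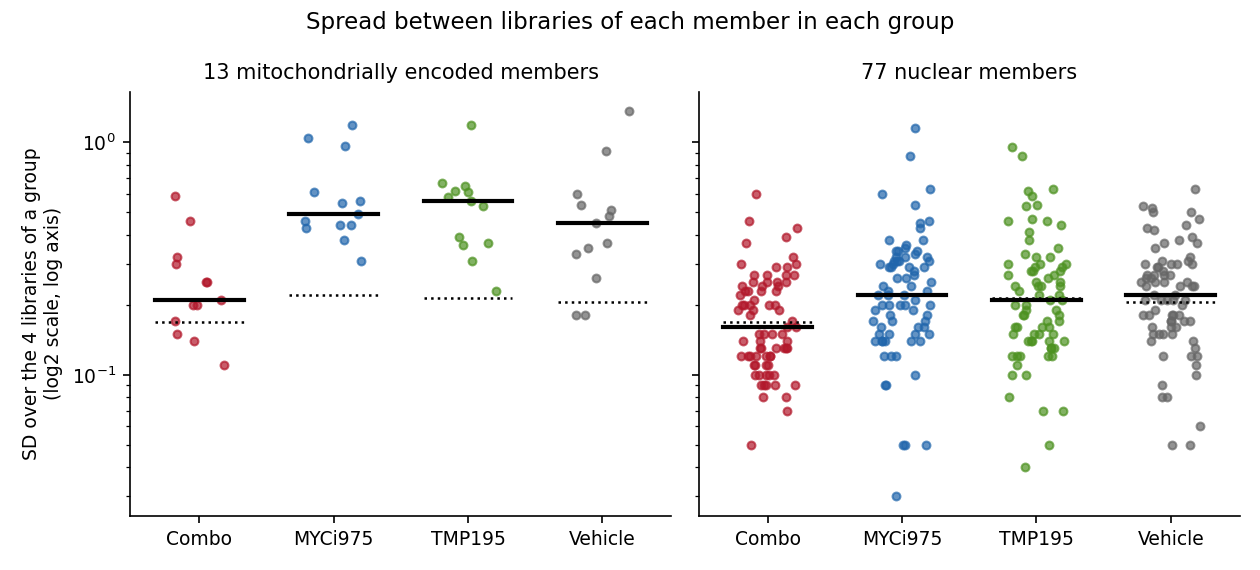
SD over the 4 libraries of each group (log2 scale, logarithmic axis) for each mitochondrially encoded member, left, and each nuclear member, right. Solid bars are the medians of the members, 0.207 in Combo and 0.447 in Vehicle for the mitochondrial genes, and dotted bars the medians of all tested genes.

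mt-Nd6, a membrane subunit of complex I and the only member on the other strand of the mitochondrial chromosome, varied most. It had 12.54, 12.49, 12.30 and 12.47 in Combo, and 12.46, 12.92, 12.85 and 10.87 in MYCi975. It had 13.97, 12.53, 12.25 and 11.08 in TMP195, and 12.27, 11.93, 13.41 and 10.13 in Vehicle. Replicate 4 of MYCi975, TMP195 and Vehicle held the 3 lowest values, and Combo replicate 4 did not share them. Relative to the mean of the other 12 mitochondrial members, mt-Nd6 stood at -2.19 in MYCi975 replicate 4, -2.48 in TMP195 replicate 4 and -2.82 in Vehicle replicate 4, and between -1.30 and 0.35 in the other 13 libraries. Those 3 libraries also had the highest values of the mitochondrial ribosomal RNA mt-Rnr1, 18.21, 18.96 and 18.79, against 16.79 to 18.00 elsewhere. The labels give no reason why libraries numbered 4 should differ, and the part of library quality was not tested. Without mt-Nd6, a choice made after its values were seen, the group mean of the mitochondrial members was 13.08 ± 0.20 in Combo, 13.41 ± 0.52 in MYCi975, 13.24 ± 0.41 in TMP195 and 13.34 ± 0.36 in Vehicle (SD, n = 4 each).

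**Figure D5:**
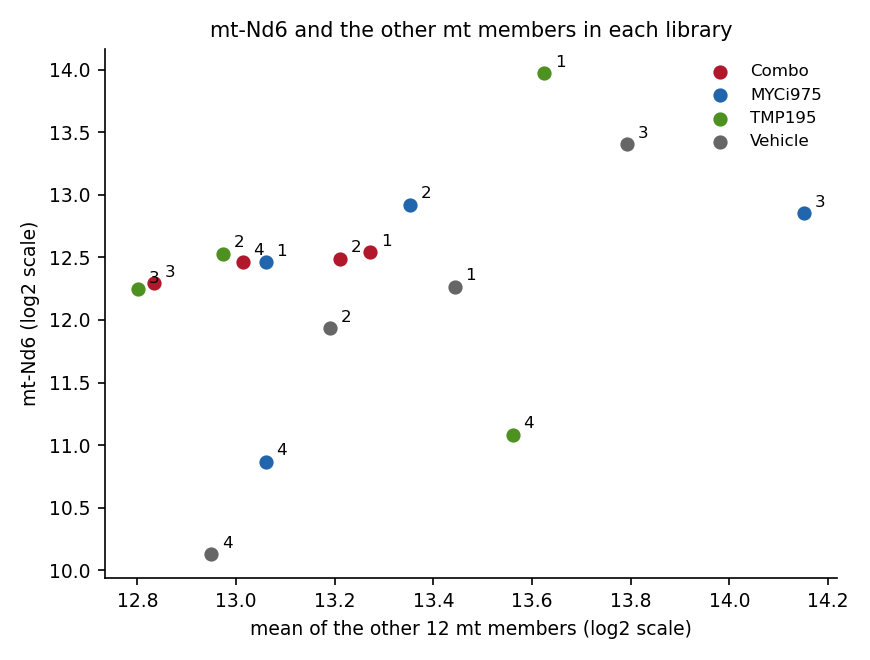
mt-Nd6 (vertical axis, log2 scale) against the mean of the other 12 mitochondrially encoded members (horizontal axis, log2 scale) in each library. Points are libraries, coloured by group and numbered by replicate; replicate 4 of MYCi975, TMP195 and Vehicle lies at the bottom, between 10.13 and 11.08.

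Other mitochondrial members also had single libraries apart. mt-Co2, a copper-binding subunit of complex IV, was 11.98 in MYCi975 replicate 1 and 13.10 to 14.50 in the other libraries. mt-Nd3, the least abundant by its deposited value, was 10.06 in MYCi975 replicate 3 and 7.01 to 9.01 elsewhere. These values lie in the same group, so MYCi975 had SDs of 1.04 for mt-Co2 and 1.19 for mt-Nd3.

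Several nuclear members, picked after their values were seen, varied by library rather than by group. Ndufs5, an accessory subunit of complex I, was 8.28 in MYCi975 replicate 4, 8.95 in TMP195 replicate 4 and 8.71 in Vehicle replicate 4, and 6.91 to 7.79 elsewhere, so the 3 libraries lowest in mt-Nd6 were the highest here. Ndufa2, another accessory subunit, was 7.98, 7.82 and 7.72 in those libraries and 8.07 to 9.24 elsewhere. Atp5l, the subunit g of ATP synthase, had the largest nuclear SD (0.751) and was highest in replicate 1 of TMP195 (10.52), MYCi975 (10.30) and Combo (9.97). Its pseudogene Atp5l-ps1 was also highest in those libraries, at 7.84, 7.28 and 7.31, and reads of the copies may have been divided between them. At the other end, Ndufs1 (SD 0.098), Ndufs3 (0.099) and Atp5g3 (0.106) were nearly level, with Ndufs1 between 11.45 and 11.78 in all 16 libraries.

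The other genes of the pathway, listed by function, showed no gene past limma's adjusted test in any comparison. In Combo against Vehicle, 19 of 26 tested genes of mitochondrial DNA upkeep and RNA synthesis and processing were lower, with a median of -0.10. Their mean was 9.36, 9.38, 9.36 and 9.33 in Combo, against 9.43, 9.46, 9.41 and 9.45 in Vehicle, and no library of one group reached the other. After subtraction of each library's median over all tested genes the means were 0.68, 0.69, 0.65 and 0.62 in Combo and 0.70, 0.72, 0.71 and 0.70 in Vehicle. The gene with the smallest p was Supv3l1, a mitochondrial RNA helicase already named in earlier results of these data, at 9.35, 9.12, 9.05 and 9.35 in Combo and 9.52, 9.58, 9.78 and 9.59 in Vehicle. Its difference was -0.40 (SE 0.12, limma adjusted p = 0.987). Supv3l1 counts in the mean above, which was not recomputed without it. The gap between Combo and Vehicle in that mean therefore draws on a gene already known from these same data. MYCi975 libraries ran over 9.31 to 9.57 and TMP195 libraries over 9.29 to 9.42 for the same mean, both overlapping Vehicle.

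In Combo against Vehicle, 12 of 20 assembly factors of complex I (median -0.01), 3 of 4 of complex II (median -0.07), 3 of 6 of complex III (median -0.03), 16 of 24 of complex IV (median -0.07) and 2 of 4 of complex V (median -0.01) were lower. The assembly factors of complex V were lower in 4 of 4 cases in MYCi975 against Vehicle (median -0.14) and in TMP195 against Vehicle (median -0.19). Citric acid cycle genes were lower in 12 of 17 cases (median -0.07), with Idh3g, a subunit of isocitrate dehydrogenase, at -0.39 (SE 0.11, limma adjusted p = 0.987). Of the known regulators of nuclear subunit genes, 9 of 11 passed the filter and 7 were lower in Combo (median -0.06), whereas Ppargc1a and Ppara lay under it. The mitochondrial ribosomal RNAs differed by -0.42 for mt-Rnr1 and -0.29 for mt-Rnr2, next to a median of -0.24 for the messenger RNAs of the same genome. Without Vehicle replicate 4 the mt-Rnr1 difference was -0.07.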

How the data were processed

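The authors deposited 1 table of variance-stabilised expression values, close to log2, for 24334 mouse genes in 16 libraries. Per the labels' protocols, RNA was extracted from enriched tumour cells on a spin column and made into stranded total RNA libraries. The submitters' processing notes name Salmon, without a version, and the build hg38, although genes and samples are mouse. The sources used here give neither the mouse annotation nor the stabilisation tool. Counts, depth and detection limits are therefore unknown, and stabilisation compresses differences of weakly expressed genes.

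Symbols came from a gene name table, which matched 23150 of 24334 identifiers (95.1%). The 15715 genes that exceeded the lowest value (4.84) by 1 or more in at least 4 libraries were tested with limma 3.58.1 in R 4.3.3 (1 mean per group, all 16 libraries, moderation with trend, two-sided, Benjamini-Hochberg over all tested genes, called under 0.05). The fit was tested on simulated data. The members and lists were chosen with earlier results of these data known, so group means over members carry no p. Named genes are the mitochondrial members, the 2 nuclear members per complex with the smallest p in each comparison with Vehicle, and preset subunits. Others, among them Ndufb8, Ndufs3 and Idh3g, were picked after their values were seen. Not every gene chosen in these ways is reported here. Alternatives covered filters, moderation, scaling, replicate number, compared groups alone and left-out libraries.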

Additional observations from a re-analysis of the deposited data

Results flagged for a closer look

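In a group of 4, a library was singled out when its gap to the nearest other library exceeded the share of the group's range that Dixon's test takes as critical. This was so in 9 of 184 groups examined over 43 members and the 3 group means, and chance alone singles out about 1 in 20. MYCi975 replicate 4 had a mean over the nuclear members of 9.38 (other MYCi975 libraries 9.28 to 9.29). Of the mitochondrial members, mt-Cytb, the mitochondrial subunit of complex III, was 14.52 in MYCi975 replicate 3 (others 13.24 to 13.46) and mt-Nd2 was 12.46 in Combo replicate 1 (others 12.05 to 12.06). Of the nuclear members, Atp5b was 14.11 in Combo replicate 1 (others 13.49 to 13.56), and Uqcr10 was 8.79 in MYCi975 replicate 2 (others 8.44 to 8.48). Cox4i1 was 11.32 in MYCi975 replicate 2 (others 10.53 to 10.64) and 11.34 in Vehicle replicate 2 (others 10.82 to 10.86). Low libraries were TMP195 replicate 1 for Ndufs1, at 11.55 (others 11.75 to 11.77), and TMP195 replicate 4 for Ndufv1, at 10.01 (others 10.71 to 10.80). The cause was not tested.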

How the results depend on the processing

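Over 150 pairs of a setting and a comparison, 142 called no gene, the highest count was 2 and no member was called in any. With 1 library left out, 0 to 2 genes were called in TMP195 against Vehicle and in Combo against TMP195, both times Csf1r and Ccr2 without TMP195 replicate 3, and 0 to 1 in MYCi975 against Vehicle and in Combo against MYCi975. A count of 1 came from the compared groups alone (Combo against Vehicle) and, in Combo against TMP195, from moderation without a trend and from leaving out TMP195 replicate 1 with MYCi975 replicate 3. With replicate number as a block (replicate block), 0 genes were called in each comparison. The number with an unadjusted p under 0.05 rose in each comparison, among all tested genes and among members. In Combo against Vehicle it was 878 of 15715 genes and 3 of 90 members, against 642 and 0 without the block. In TMP195 against Vehicle it was 991 genes and 6 members, against 767 and 3. Same-numbered libraries correlated at 0.20 to 0.43 for number 1 and 0.17 to 0.39 for number 4, but at -0.11 to 0.24 for number 2 and -0.24 to 0.12 for number 3, so the numbers were not taken to pair all libraries. Counts of members and of spread were examined under settings chosen after the data were seen. Mitochondrial members lower than Vehicle numbered 3 to 13 of 13 in TMP195 and 0 to 11 in MYCi975 with 1 library left out. In Combo they numbered 10 to 13, although the mean difference was only -0.026 without Vehicle replicate 3. In MYCi975 they were 3 after quantile normalisation and 11 without TMP195 replicate 1 and MYCi975 replicate 3. The members with their smallest SD in Combo were 6 to 12 mitochondrial and 25 to 46 nuclear with 1 library left out, 4 mitochondrial without TMP195 replicate 1 and MYCi975 replicate 3, and 21 nuclear without all libraries numbered 4. Among single genes, Uqcrc1 in TMP195 against Vehicle ran over -0.32 to 0.01, above 0 without Vehicle replicate 4. The causes were not tested, and unknown depth limits all weakly expressed members.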
